A study of Homo sapiens with 12 samples.

Results

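Krüppel-like factors (KLFs) are zinc finger transcription factors. The set described here holds 10 of them, KLF2, KLF3, KLF4, KLF5, KLF6, KLF7, KLF9, KLF10, KLF11 and KLF13, taken by gene symbol from the 18132 genes that the arrays measured, and all 10 were found. RNA came from A549 monolayers on plastic, a line derived from a human lung adenocarcinoma that keeps some features of alveolar type II cells. In the group with both treatments, monolayers were heat shocked for 2 h, then wounded and left for 4 h. Other monolayers were only heat shocked for 2 h, or only wounded and left for 4 h. Untreated monolayers were the control, and each of the 4 groups had 3 arrays, 12 in all. All groups are 1 line in the same medium, and the labels give neither the collection time of the monolayers that were only heat shocked nor the temperature. Monolayers for the arrays carried multiple wounds, and each array read the RNA of a whole monolayer, so more RNA per cell and a larger share of responding cells cannot be told apart.

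KLF proteins bind CACCC and GC boxes through zinc fingers that the family shares, and differ in the rest of the protein. One branch, here KLF2, KLF4, KLF5, KLF6 and KLF7, recruits acetyltransferases and mostly activates transcription. KLF9, KLF10, KLF11 and KLF13 bind the corepressor SIN3A, and KLF3 binds the corepressor CtBP. Several members are immediate early genes, switched on within hours of serum, injury or stress, and their proteins are short-lived. In epithelia KLF4 is known for growth arrest and differentiation, KLF5 for proliferation, and KLF6 for responses to tissue injury.

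The promoters of the 5 members whose levels moved most by their group means (KLF7, KLF6, KLF2, KLF9 and KLF4) are shown to place these genes in the genome. Each window runs from 250 bases before to 50 bases after an annotated start, on GRCh38.p14 from RefSeq, and capitals mark every match, on either strand, to 9 short motifs of factors that respond to heat, wounding or serum or that belong to the SP and KLF families. The windows lie at chr2:207167197-207167496 for KLF7 (minus strand, the most upstream of 4 annotated starts), chr10:3785160-3785459 for KLF6 (minus), chr19:16324576-16324875 for KLF2 (plus), chr9:107489720-107490019 for KLF4 (minus) and chr9:70414608-70414907 for KLF9 (minus).
KLF7: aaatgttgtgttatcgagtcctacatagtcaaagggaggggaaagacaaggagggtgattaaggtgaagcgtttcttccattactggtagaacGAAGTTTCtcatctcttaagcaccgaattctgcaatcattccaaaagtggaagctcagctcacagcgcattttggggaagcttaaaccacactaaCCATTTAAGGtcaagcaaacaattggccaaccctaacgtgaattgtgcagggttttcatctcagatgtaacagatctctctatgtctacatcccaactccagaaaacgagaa
KLF6: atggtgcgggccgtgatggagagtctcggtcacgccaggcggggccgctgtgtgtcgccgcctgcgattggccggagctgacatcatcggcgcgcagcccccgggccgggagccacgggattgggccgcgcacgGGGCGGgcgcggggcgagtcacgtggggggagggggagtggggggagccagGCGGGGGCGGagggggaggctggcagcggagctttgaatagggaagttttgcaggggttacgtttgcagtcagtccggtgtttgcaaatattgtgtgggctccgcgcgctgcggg
KLF2: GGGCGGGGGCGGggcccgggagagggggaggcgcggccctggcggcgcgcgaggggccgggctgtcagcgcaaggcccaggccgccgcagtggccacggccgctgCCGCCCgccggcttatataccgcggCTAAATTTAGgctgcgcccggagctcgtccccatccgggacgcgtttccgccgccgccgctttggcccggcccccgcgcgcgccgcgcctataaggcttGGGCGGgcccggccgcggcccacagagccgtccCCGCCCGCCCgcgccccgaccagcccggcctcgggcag
KLF4: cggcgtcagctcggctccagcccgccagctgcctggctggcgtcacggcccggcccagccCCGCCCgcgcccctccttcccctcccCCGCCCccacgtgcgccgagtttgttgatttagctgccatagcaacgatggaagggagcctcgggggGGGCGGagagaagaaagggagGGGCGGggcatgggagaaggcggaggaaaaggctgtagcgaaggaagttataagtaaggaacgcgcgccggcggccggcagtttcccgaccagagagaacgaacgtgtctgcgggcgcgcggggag
KLF9: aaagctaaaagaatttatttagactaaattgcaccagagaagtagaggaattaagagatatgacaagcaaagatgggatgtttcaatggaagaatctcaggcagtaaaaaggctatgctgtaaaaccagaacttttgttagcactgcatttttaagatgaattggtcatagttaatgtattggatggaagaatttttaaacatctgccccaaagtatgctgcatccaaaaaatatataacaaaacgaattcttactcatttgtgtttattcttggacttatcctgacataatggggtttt

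The KLF7 window held a match to the heat shock element core GAANNTTC at position -157 from the start, found in 6.77% of the 35116 RefSeq promoters of the same length, and a serum response CArG box at -62, found in 1.29%. The windows at the other 3 KLF7 starts held neither: start 2 had 4 GC boxes, start 3 had 2 CACCC boxes and start 4 had no match. The KLF6 window held the EGR site GCGGGGGCG, found in 5.07% of promoters, at -65 and overlapping a GC box. The KLF2 window also held an EGR site, overlapping a pair of GC boxes, and a MEF2 element at -120, found in 2.99% of promoters. The KLF4 window held 4 GC boxes (GGGCGG, found in 45% of promoters). The KLF9 window had a GC content of 32.7%, against a median of 58.7% over all promoters, and held no match to any of the 9 motifs, which also include the CACCC box (CCACCC), the AP-1 site TGANTCA, the cyclic AMP response element TGACGTCA and the tail-to-tail heat shock core TTCNNGAA. These matches describe letters and not bound sites.

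Over the whole series the arrays were even: their median log2 levels lay between 5.3 and 5.32. One array with both treatments, replicate 2, was unlike the rest, with an interquartile range of 3.98 against 4.13 to 4.24 on the others. The 6 heat shock genes used to check the labels were all higher after heat shock than in control, and the 6 wound genes were all higher after wounding, 5 of them also after heat shock alone. Both lists were chosen with earlier results of these data known, so they are not an independent check. Of 7 epithelial markers 6 had a control level of at least 6, whereas only ABCA3 and SFTPC of 8 alveolar type II markers did, with SFTPA1 at 2.26 and LAMP3 at 2.72. No marker of fibroblasts or endothelium reached 6 in control, with 8 genes in each list, and CD68 alone of 11 leukocyte markers did. The fibroblast markers summed, on a linear scale, to 154 to 184 after both treatments and 142 to 153 after heat shock. Their sums were 127 to 138 after wounding and 129 to 139 in control. The endothelial markers, also dim, summed to 127 to 171 after both treatments, against 129 to 137 in control. The part of either list in the KLF differences was not tested.

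Monolayers that were heat shocked and then wounded differed from control in 7 of the 10 KLF genes. KLF7, KLF6, KLF2, KLF4 and KLF10 were higher and KLF9 and KLF3 were lower, at an adjusted p under 0.05 from limma over all genes. In this comparison 23.1% of all genes were called, 8.66% higher and 14.4% lower. Wounding alone raised 4 members (KLF7, KLF6, KLF2 and KLF4) and lowered 0, where 3.57% of all genes were called, 2.27% higher and 1.31% lower. Heat shock alone raised 3 (KLF7, KLF11 and KLF4) and lowered KLF9, where 12.9% of all genes were called, 4.93% higher and 7.92% lower. All 10 members had a mean level over 6. With only the 9126 genes of mean level 6 or more fitted, 45.6% were called after both treatments, 32.1% after heat shock and 8.88% after wounding. In that fit KLF11 was also called after both treatments, KLF6 and KLF10 after heat shock, and KLF10 after wounding. The median difference of the 10 members from control was 0.36 on the log2 scale after both treatments, 0.32 after heat shock and 0.20 after wounding, against -0.01, -0.03 and -0.03 over all genes. By branch, the 5 acetyltransferase-binding activators had 4 higher and 0 lower after both treatments, 2 higher and 0 lower after heat shock, and 4 higher and 0 lower after wounding. The 4 SIN3A-binding repressors had 1 higher and 1 lower after both treatments, 1 higher and 1 lower after heat shock, and 0 called after wounding.

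**Figure D1:**
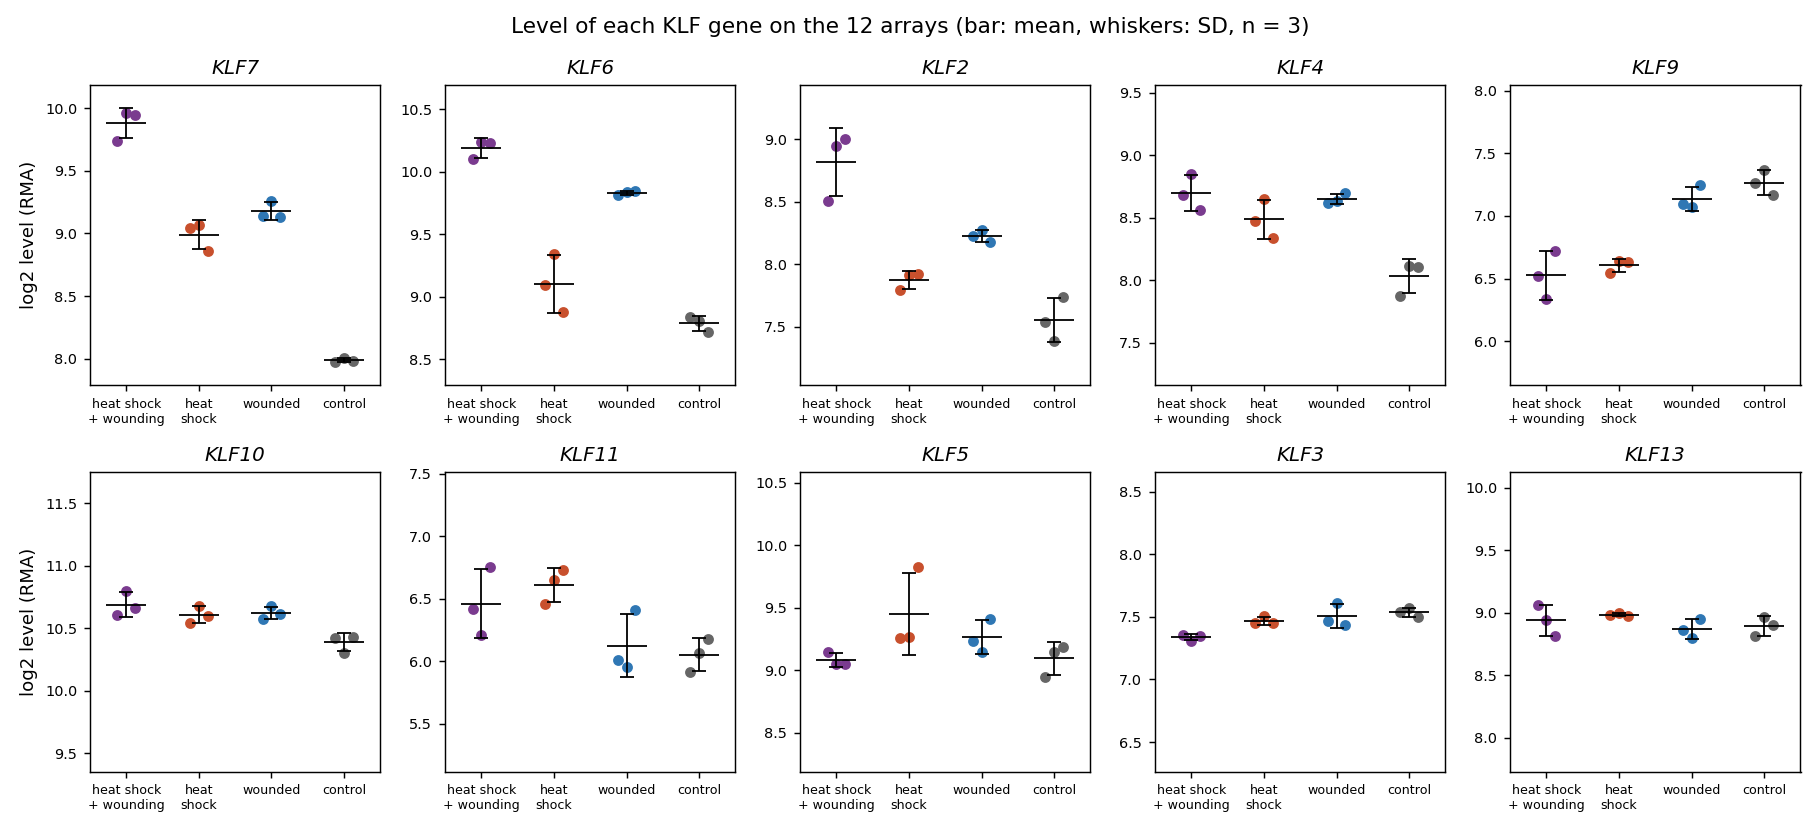
RMA log2 level of each KLF gene (vertical axis, 2.4 log2 units in every panel) on the 12 arrays, by group along the horizontal axis from heat shocked and wounded at the left to control at the right; points are arrays, long bars are group means and whiskers are SD (n = 3). KLF7, KLF6 and KLF2 are highest on all 3 heat shocked and wounded arrays, and KLF9 is lower on the heat shocked arrays of both groups than on the wounded and control arrays.

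KLF7, an activator known from developing neurons and also active in fat cell precursors, had the largest range of group means in the set, 1.90 on the log2 scale. Its log2 levels were 9.74, 9.96 and 9.95 in heat shocked and wounded monolayers, 9.04, 9.07 and 8.86 in heat shocked ones, 9.14, 9.26 and 9.13 in wounded ones, and 7.97, 8.0 and 7.98 in control. The arrays with both treatments were all above every other array, the control arrays were all below, and the single treatments lay between without touching either. KLF7 rose by 1.90 ± 0.08 after both treatments (SE of the log2 difference; 3.72-fold; adjusted p = 2.76e-08), by 1.00 ± 0.08 after heat shock (2.00-fold; adjusted p = 9.56e-06) and by 1.19 ± 0.08 after wounding (2.28-fold; adjusted p = 1.56e-05). Among all 18132 genes it had the third smallest p after wounding against control, and by size of rise it ranked 31 after wounding, 46 after both treatments and 97 after heat shock. Both treatments together exceeded wounding alone by 0.70 (1.63-fold; adjusted p = 0.000132) and heat shock alone by 0.89 (1.86-fold; adjusted p = 7.7e-05). Heat shock alone and wounding alone did not pass the test against each other (-0.19, adjusted p = 0.175), so those neighbours in the order are not separated. KLF7 was read by 4 probe sets, and all 4 were called higher in each of the comparisons with control, by 1.55 to 2.09 after both treatments, 0.87 to 1.38 after heat shock and 0.88 to 1.24 after wounding.

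KLF6, a widely expressed activator whose transcript is known to rise early after tissue injury, was highest in the groups that were wounded. Its log2 levels were 10.10, 10.24 and 10.23 in heat shocked and wounded monolayers, 9.10, 9.34 and 8.88 in heat shocked ones, 9.81, 9.83 and 9.85 in wounded ones, and 8.84, 8.80 and 8.72 in control. All wounded arrays, with or without heat shock, stood above all unwounded ones, and the lowest heat shocked array, at 8.88, stood just above the highest control array. KLF6 rose by 1.40 ± 0.10 after both treatments (2.64-fold; adjusted p = 1.02e-06) and by 1.04 ± 0.10 after wounding (2.06-fold; adjusted p = 0.000101). After heat shock alone the difference was 0.32 ± 0.10 (1.25-fold; adjusted p = 0.0529), which did not pass but did in 8 of 24 alternative analyses. Both treatments exceeded heat shock by 1.08 (2.12-fold; adjusted p = 8.37e-05) and wounding by 0.36 (1.28-fold; adjusted p = 0.0282), and the last of these calls was lost in 6 of the 24 alternatives. Heat shock alone lay 0.73 below wounding alone (adjusted p = 0.000505), which orders the groups as both treatments, wounding, then heat shock and control, the last pair not separated. Of 5 KLF6 probe sets the 3 bright ones gave 1.35 to 1.40 after both treatments and 1.03 to 1.08 after wounding, and 1 of them was called after heat shock (0.40, adjusted p = 0.0139 over all probe sets). The other 2 had control levels of 4.07 and 2.81, under the upper quartile of 19 endothelial and leukocyte markers in control (4.65), and were not called. The 3 bright probe sets put both treatments above wounding by 0.28 to 0.36, and 1 of the 5 was called there.

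KLF2, an activator best known from blood flow responses of endothelium and from quiescent T cells, followed the same order of groups. Its log2 levels were 8.50, 8.94 and 9.0 in heat shocked and wounded monolayers, 7.79, 7.91 and 7.92 in heat shocked ones, 8.23, 8.27 and 8.18 in wounded ones, and 7.54, 7.39 and 7.74 in control. None of the 4 groups overlapped another on this probe set. KLF2 rose by 1.26 ± 0.12 after both treatments (2.4-fold; adjusted p = 1.31e-05) and by 0.67 ± 0.12 after wounding (1.59-fold; adjusted p = 0.00829), whereas the difference after heat shock, 0.32 ± 0.12, did not pass (adjusted p = 0.112). Both treatments exceeded wounding by 0.59 (1.51-fold; adjusted p = 0.00675) and heat shock by 0.94 (1.92-fold; adjusted p = 0.000774). In a fit over all probe sets, the call against wounding held in 1 of 2 KLF2 probe sets, with differences of 0.43 to 0.59. The call against heat shock held in 2 of 2, with 0.69 to 0.94. The step between heat shock and wounding, -0.35, did not pass (adjusted p = 0.0981). A second KLF2 probe set gave smaller differences in each comparison with control, 0.74 after both treatments (adjusted p = 0.00348 over all probe sets), 0.05 after heat shock (adjusted p = 0.901) and 0.31 after wounding (adjusted p = 0.468), so the call after wounding rests on 1 of 2 probe sets. All 8 endothelial markers had control levels below 6.

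KLF4, the epithelial differentiation and reprogramming factor, was higher than control in all treated groups. Its log2 levels were 8.68, 8.85 and 8.56 in heat shocked and wounded monolayers, 8.48, 8.65 and 8.34 in heat shocked ones, 8.62, 8.63 and 8.70 in wounded ones, and 7.88, 8.12 and 8.11 in control. All 9 treated arrays lay above all 3 control arrays, and the treated groups overlapped each other. KLF4 rose by 0.66 ± 0.10 after both treatments (1.59-fold; adjusted p = 0.000373), by 0.46 ± 0.10 after heat shock (1.37-fold; adjusted p = 0.00941) and by 0.62 ± 0.10 after wounding (1.53-fold; adjusted p = 0.00364). Both treatments differed from wounding by 0.05 (adjusted p = 0.799) and from heat shock by 0.21 (adjusted p = 0.302), neither past the test. A second probe set was also higher than control after both treatments (0.59, adjusted p = 0.000935) and after heat shock (0.35, adjusted p = 0.0431), and missed the threshold after wounding (0.37, adjusted p = 0.0771). The call after heat shock was lost when replicates 1 and 2 of each group were averaged (0.40, adjusted p = 0.07).

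KLF5, the proliferation-associated activator of epithelia that is needed for lung maturation in mice, was called in no comparison. Its log2 levels were 9.14, 9.05 and 9.05 in heat shocked and wounded monolayers, 9.26, 9.26 and 9.83 in heat shocked ones, 9.24, 9.14 and 9.41 in wounded ones, and 8.95, 9.15 and 9.19 in control. The heat shocked group stood above control on all arrays, with replicate 3 well above the other two, and both treatments overlapped control. The differences from control were -0.01 ± 0.14 after both treatments (adjusted p = 0.963), 0.36 ± 0.14 after heat shock (adjusted p = 0.117) and 0.17 ± 0.14 after wounding (adjusted p = 0.694). Without heat shock replicate 3 the difference after heat shock was 0.17 (adjusted p = 0.328).

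KLF9, a repressor induced by glucocorticoid and thyroid hormone, was lower in the groups that were heat shocked. Its log2 levels were 6.52, 6.33 and 6.72 in heat shocked and wounded monolayers, 6.55, 6.64 and 6.63 in heat shocked ones, 7.10, 7.07 and 7.24 in wounded ones, and 7.26, 7.37 and 7.17 in control. All 6 heat shocked arrays, wounded or not, lay below all 6 others, and wounded arrays overlapped control. KLF9 fell by 0.74 ± 0.09 after both treatments (adjusted p = 0.000121) and by 0.66 ± 0.09 after heat shock (adjusted p = 0.000775), where it ranked 96 among all genes by size of fall, and it differed by -0.13 after wounding (adjusted p = 0.653). It was lower after both treatments than after wounding (-0.61, adjusted p = 0.00121) and lower after heat shock than after wounding (-0.53, adjusted p = 0.00339), and it differed by -0.08 between both treatments and heat shock (adjusted p = 0.734). A second probe set with a control level of 6.26 was called after both treatments (-0.46, adjusted p = 0.00362) but not after heat shock (-0.29, adjusted p = 0.0795), and the remaining 2, at control levels of 3.53 and 3.18, showed differences of 0.25 or less. With all 4 probe sets averaged, KLF9 was no longer called below wounding, after both treatments (-0.15, adjusted p = 0.117) or after heat shock (-0.13, adjusted p = 0.229).

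KLF10, a repressor first cloned as a gene induced early by transforming growth factor beta, had log2 levels of 10.61, 10.80 and 10.66 in heat shocked and wounded monolayers, 10.55, 10.68 and 10.60 in heat shocked ones, 10.58, 10.68 and 10.62 in wounded ones, and 10.42, 10.30 and 10.43 in control. Every treated array was above every control array by a small step, and the treated groups overlapped. KLF10 rose by 0.30 ± 0.07 after both treatments (1.23-fold; adjusted p = 0.00801). The differences of 0.22 after heat shock (adjusted p = 0.0605) and 0.24 after wounding (adjusted p = 0.114) did not pass.

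KLF11, a close relative of KLF10 that also binds SIN3A, had log2 levels of 6.41, 6.21 and 6.76 in heat shocked and wounded monolayers, 6.46, 6.65 and 6.73 in heat shocked ones, 6.01, 5.95 and 6.41 in wounded ones, and 5.91, 6.07 and 6.18 in control. The heat shocked and control groups did not overlap, and wounded arrays overlapped control. KLF11 rose by 0.56 ± 0.15 after heat shock (1.47-fold; adjusted p = 0.0262), while 0.41 after both treatments (adjusted p = 0.0664) and 0.07 after wounding (adjusted p = 0.905) did not pass. The call after heat shock was lost in 5 of 24 alternatives, 4 of which left out 1 array (control 1, control 2, heat shock 2 or heat shock 3). The difference after both treatments was called in 11 of the 24, the replicate block among them (adjusted p = 0.0114). A second probe set, with a control level of 4.93, gave 0.04 after both treatments and 0.07 after heat shock, and the mean of all 3 probe sets put the difference after heat shock at 0.27.

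KLF3, a CtBP-binding repressor, had log2 levels of 7.36, 7.31 and 7.35 in heat shocked and wounded monolayers, 7.45, 7.50 and 7.45 in heat shocked ones, 7.47, 7.61 and 7.43 in wounded ones, and 7.54, 7.57 and 7.50 in control. The arrays with both treatments were below all others, over a narrow range. KLF3 fell by 0.20 ± 0.06 after both treatments (adjusted p = 0.0377), a call that was absent in 15 of 24 alternatives. In 2 of these the sign turned, to 0.05 when its 5 probe sets were averaged and to 0.18 when the probe set of largest variance was used. KLF13, a SIN3A-binding repressor known as an activator of CCL5 in T cells, had the narrowest range of group means in the set, 0.12, and was called in no comparison. A second KLF13 probe set, with a mean level of 7.50, differed more from control after heat shock, by 0.33, and was also never called.

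**Figure D2:**
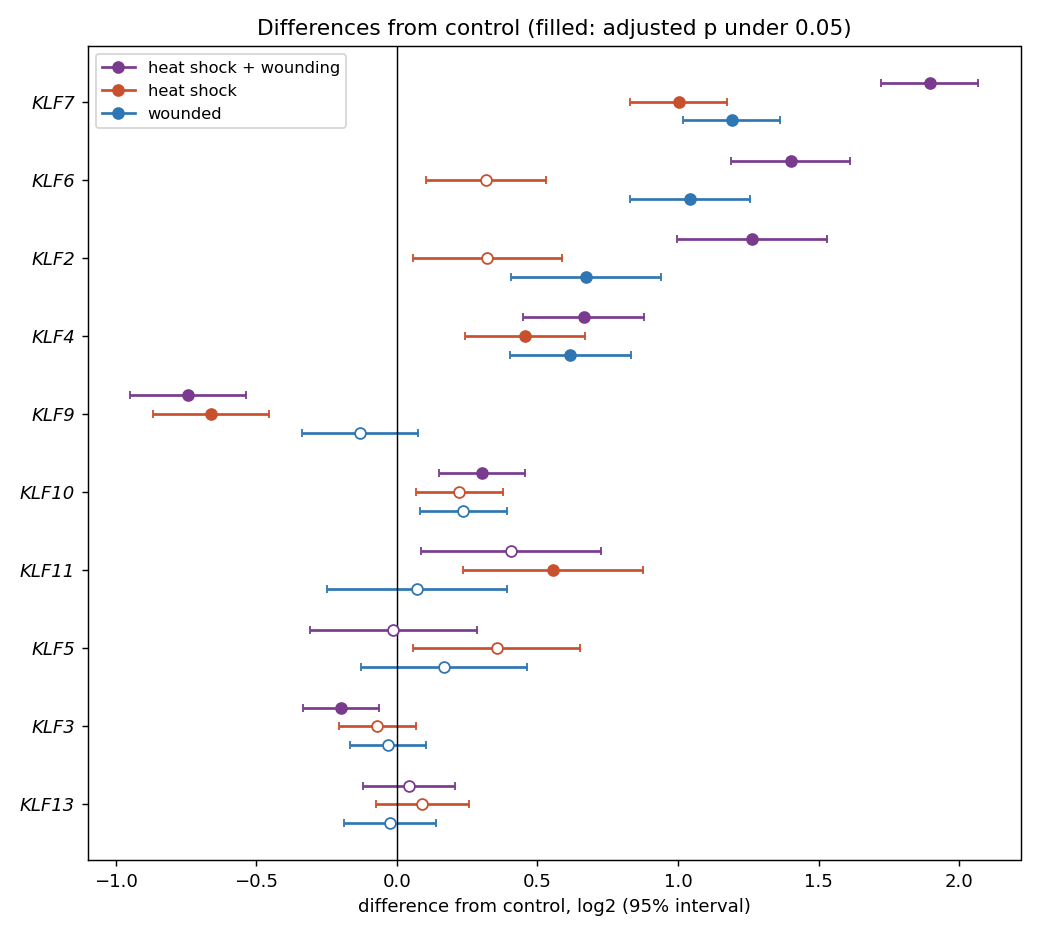
Log2 difference of each KLF gene (rows) from control after both treatments, heat shock and wounding, with its 95% interval from limma along the horizontal axis; filled points have an adjusted p under 0.05 over 18132 genes. KLF7, KLF6 and KLF2 lie furthest to the right after both treatments (1.90, 1.40 and 1.26), and KLF9 lies to the left after both treatments and after heat shock (-0.74 and -0.66).

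Setting both treatments against wounding alone called 4 of the 10 members (KLF7, KLF6 and KLF2 higher, KLF9 lower), where 14.9% of all genes were called, 6.31% higher and 8.6% lower. Against heat shock alone, both treatments called 3 members, all higher (KLF7, KLF6 and KLF2), where 4.3% of all genes were called, 2.71% higher and 1.58% lower. Heat shock against wounding called KLF6 and KLF9, both lower, where 10.5% of all genes were called, 4.51% higher and 6.01% lower. With only the genes of mean level 6 or more fitted, both treatments called 32.4% against wounding and 10.8% against heat shock, and heat shock against wounding called 25.7%. In that fit KLF3 was also called for both treatments against wounding, and KLF2 and KLF11 for heat shock against wounding. Without the array that was unlike the rest, both treatments called 7 members against control (6 higher, 1 lower), 3 against wounding (2 higher, 1 lower) and 3 against heat shock (all higher), where 18.6%, 10.1% and 2.75% of all genes were called. Groups that do not overlap were counted too: after both treatments 8 members did not overlap control (37.4% of all genes), after heat shock 9 (31.3%) and after wounding 5 (21.9%). Both treatments did not overlap wounding in 5 members (32.1% of all genes) or heat shock in 5 (19.9%), and heat shock did not overlap wounding in 6 (28.3%). These comparisons share arrays, so their counts are not independent of each other.

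No member passed the test of the interaction, which asks whether the difference made by both treatments departs from the sum of the single ones. Over all genes 1 was called, 0.00552% of those tested. Monolayers that were only heat shocked have no stated collection time, so the sum of the single differences may mix times since heat shock. For KLF6 the difference after both treatments was 1.40 and the sum of the single differences 1.36, with a departure of 0.04 (95% interval -0.26 to 0.34). For KLF2 the values were 1.26 and 0.99 (departure 0.27, -0.11 to 0.64), and for KLF9 -0.74 and -0.79. At an unadjusted threshold of 0.05 limma gave 3 members, KLF4, KLF5 and KLF7, all with less than the sum, where 7.18% of all genes passed that threshold. KLF4 had 0.66 against a sum of 1.07 (departure -0.41, -0.71 to -0.10, adjusted p = 0.608). KLF5 had -0.01 against 0.52 (departure -0.54, -0.96 to -0.12, adjusted p = 0.612), and its departure was -0.35 without heat shock replicate 3 (adjusted p = 0.521). KLF7 had 1.90 against 2.19 (departure -0.30, -0.54 to -0.05, adjusted p = 0.625). Over all their probe sets the departures ran from -0.41 to -0.13 for KLF4, -0.54 to -0.26 for KLF5 and -0.53 to -0.14 for KLF7.

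**Figure D3:**
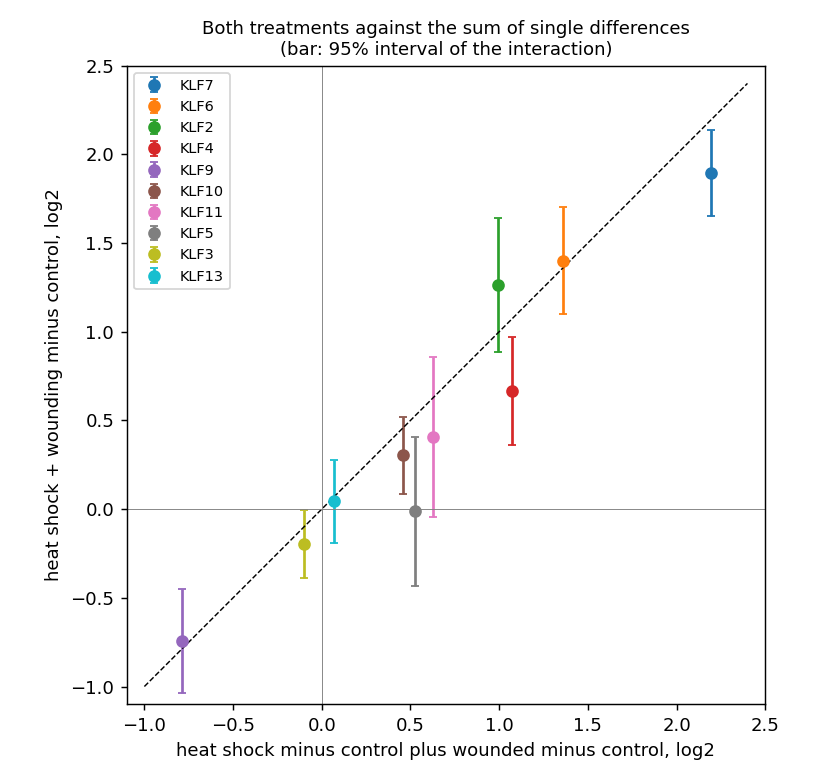
Log2 difference from control after both treatments (vertical axis) against the sum of the differences after heat shock alone and wounding alone (horizontal axis) for the 10 KLF genes; the dashed line marks equality and bars are 95% intervals of the interaction. KLF6 lies on the line (1.40 and 1.36), KLF2 above it (1.26 and 0.99), and KLF7 (1.90 and 2.19), KLF4 (0.66 and 1.07) and KLF5 (-0.01 and 0.52) below it.

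The 10 members were read by 32 probe sets, of which 25 had a mean level above 4.65. In a fit across all 49292 probe sets, 14 of the 32 were called higher and 2 lower after both treatments (17.9% of all probe sets called), 8 higher and 1 lower after heat shock (8.82%), and 9 higher and 0 lower after wounding (2.26%). Both treatments gave 6 higher and 2 lower against wounding (11%) and 9 higher and 0 lower against heat shock (2.74%), heat shock against wounding gave 0 higher and 4 lower (7.54%), and the interaction gave 0 (0.00406%). No gene had probe sets called in opposite directions. KLF10, with 2 bright probe sets, gave 0.30 and 0.29 after both treatments. A dim KLF11 probe set, with a mean level of 2.44, was called after both treatments (0.29, adjusted p = 0.0202), whereas the KLF3 probe set used for the gene was not (adjusted p = 0.0629).

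**Figure D4:**
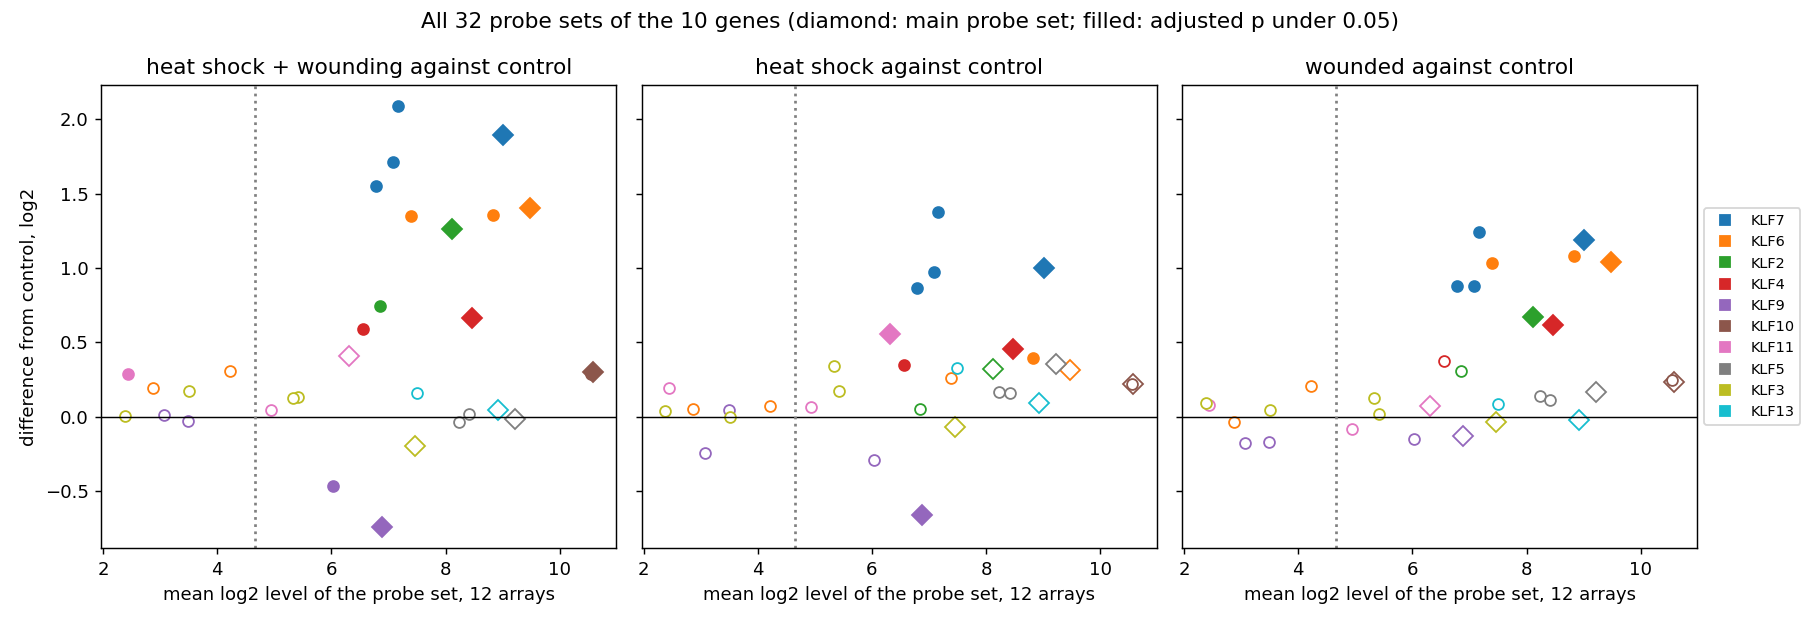
Log2 difference from control of each of the 32 KLF probe sets (vertical axis) against its mean log2 level over the 12 arrays (horizontal axis), in 1 panel per treatment; diamonds are the probe sets used for the gene, filled symbols have an adjusted p under 0.05 over all probe sets, and the dotted line is at 4.65. The 4 KLF7 probe sets lie highest after both treatments (1.55 to 2.09), and left of the dotted line the differences are small, with 1 filled symbol (KLF11, 0.29).

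Of 16 other KLF and SP genes measured, 2 were higher and 1 lower after both treatments, 0 higher and 1 lower after heat shock, and 0 called after wounding, with median differences of 0.03, 0.04 and 0.01. Over all genes 23.1%, 12.9% and 3.57% were called in these comparisons, with median differences of -0.01, -0.03 and -0.03. SP4, a GC box binding factor, fell by 0.92 after both treatments (adjusted p = 2.54e-05) and by 0.60 after heat shock (adjusted p = 0.00157). The genes that rose after both treatments were KLF12 (0.36, adjusted p = 0.0254) and KLF15 (0.32, adjusted p = 0.0217), from dim control levels of 4.93 and 3.04. Other genes of this list were dim too. Control levels were 3.44 for KLF1, 2.85 for KLF8, 3.46 for KLF14, 3.08 for KLF17, 3.24 for SP5, 4.25 for SP7 and 4.39 for SP8. These lay under 4.65, the upper quartile of endothelial and leukocyte markers in control. For such dim genes, a missing call does not show that the gene did not respond.

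Genes of the pathways upstream of KLF transcription, namely the ERK5 kinase cascade, MEF2, serum response factor, its cofactors, EGR1 and the glucocorticoid receptor gene NR3C1, had 6 of 14 measured members higher and 1 lower after both treatments, 6 higher and 0 lower after heat shock, and 3 higher and 0 lower after wounding, with median differences of 0.13, 0.18 and 0.03. For all genes the shares higher were 8.66%, 4.93% and 2.27% in that order, and the shares lower 14.4%, 7.92% and 1.31%. EGR1, an immediate early factor whose site is marked in the KLF6 and KLF2 windows, rose by 2.98 after both treatments, 1.03 after heat shock and 2.99 after wounding. ELK3, a partner of serum response factor, rose by 1.19 after both treatments and 0.94 after wounding, and MRTFA, a coactivator of that factor, by 0.63 after both treatments and 0.49 after heat shock. MAPK7, which encodes ERK5, was not called in these comparisons. Other cascade genes moved both ways in mean log2 level after both treatments, after heat shock, after wounding and in control. These were MAP3K2 (9.22, 9.02, 9.24 and 8.63), MAP2K5 (7.18, 7.19, 6.96 and 6.92) and MAP3K3 (5.98, 6.02, 6.34 and 6.32).

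Among 10 measured genes of KLF protein turnover, which are ubiquitin ligases or their subunits and the deubiquitinase ATXN3L, 4 were higher and 2 lower after both treatments, 2 higher and 0 lower after heat shock, and 2 higher and 0 lower after wounding, with median differences of 0.01, 0.04 and 0.05. Shares of all genes called were 23.1%, 12.9% and 3.57% in that order. The ubiquitin ligase genes SMURF2 and SMURF1 were called higher each time: SMURF2 by 0.94, 0.37 and 0.73 and SMURF1 by 0.89, 0.56 and 0.51, in that order of treatments. WWP1, a ligase known to act on KLF2 and KLF5, fell by 0.43 after both treatments. Of 15 corepressors and coactivators, 0 were higher and 7 lower after both treatments, 0 higher and 3 lower after heat shock, and 0 called after wounding, with median differences of -0.19, -0.09 and -0.04. In these comparisons 14.4%, 7.92% and 1.31% of all genes were lower. All 15 had group means over 6. With only the 9126 genes of mean level 6 or more fitted, 2796 were lower after both treatments, 1905 after heat shock and 325 after wounding. For these 15 genes that is a closer background than the shares of all genes, although their own calls came from the fit over all genes. EP300, the acetyltransferase p300, fell by 0.36 after both treatments and 0.35 after heat shock, and SAP30 of the SIN3A complex fell by 0.40 after both.

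Of 29 measured genes reported elsewhere as KLF targets, 10 were higher and 6 lower after both treatments, 4 higher and 5 lower after heat shock, and 3 higher and 2 lower after wounding, with median differences of 0.15, 0.03 and 0.03. Among all genes 8.66%, 4.93% and 2.27% were higher in that order, and 14.4%, 7.92% and 1.31% lower. The list held genes that KLF proteins raise and genes that they lower. CDKN1A, the cell cycle inhibitor p21 and a target of KLF4 and KLF6, rose by 0.87 after both treatments (adjusted p = 6.95e-05) and by 0.47 after heat shock (adjusted p = 0.0109), and differed by 0.26 after wounding (adjusted p = 0.286). CCNE1, which encodes cyclin E1, fell in all comparisons with control, by 1.01 after both treatments, 0.88 after heat shock and 0.37 after wounding. THBD, the thrombomodulin gene that KLF2 raises in endothelium, fell by 0.44 after heat shock and was not called after both treatments (0.03, adjusted p = 0.795) or wounding (0.12, adjusted p = 0.445). TGFBR1, a receptor gene that KLF6 raises, rose by 0.86 after both treatments and 0.95 after wounding.

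The lists that KLF9, KLF10 and KLF11 belong to were counted without those members. Beside them, 23.1% of all genes were called after both treatments, 12.9% after heat shock and 3.57% after wounding. Of 10 early response genes of transforming growth factor beta, 5 were higher and 2 lower after both treatments, 3 higher and 1 lower after heat shock, and 4 higher and 3 lower after wounding, with SKIL higher each time (1.48, 1.04 and 1.03) and ID2 lower each time (-1.23, -0.40 and -0.83). With KLF10 and KLF11 included, the median differences of this list were 0.36, 0.23 and 0.13. Of 9 glucocorticoid response genes, 4 were higher and 3 lower after both treatments, 2 higher and 1 lower after heat shock, and 2 higher and 1 lower after wounding. With KLF9 included, the median differences of this list were -0.10, -0.03 and 0.03. FKBP5, a glucocorticoid-induced chaperone gene, fell by 0.51 after both treatments and by 0.34 after heat shock and was not called after wounding (-0.13, adjusted p = 0.585), while TSC22D3 rose by 0.64 after both treatments and 0.54 after wounding.

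The genes whose differences from control lay nearest to those of the strongest members were taken by the root mean square distance over the 3 differences, among 9427 genes with a mean level of at least 6 in some group. The likeness describes 4 group means and was not tested. For KLF7 they were DAAM1 (distance 0.03 on the log2 scale), ELL2 and ETS2 (0.12 each). For KLF6 they were RASSF10 (0.03), AMPD3 (0.09) and PPP1R14C (0.10), and for KLF2 they were RAP1GAP2 (0.02), OTUB2 (0.07) and KCNN4 (0.08).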

How the data were processed

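Total RNA (100 ng per array) was read on Affymetrix PrimeView arrays. The authors deposited log2 levels per probe set; the submitters' processing notes name RMA and Affymetrix Expression Console, with no version. Depth has no counterpart on arrays, whose number limits the precision. From these values 1 probe set per gene (the highest mean over the 12 arrays) was kept among the 44988 with a single symbol, which gave 18132 genes. The 1 probe set with a missing value was left out. Groups came from the labels. limma 3.58.1 in R 4.3.3 fitted 1 mean per group (8 residual degrees of freedom, no replicate block), with Benjamini-Hochberg adjustment over all genes and a threshold of 0.05. Each ± is an SE. Heat shock against wounding was added to the planned comparisons to order the groups. The labels do not say that the arrays of a group are separate cultures, so p-values measure the spread between these samples, which may be technical. The members, gene lists, branches and tests were chosen with earlier results of these data known. All 10 members were described. By the naming rule, the text could name up to 3 called genes per list and comparison by size of change, any gene counted in a list, and the 3 genes nearest to each of the 3 members with the widest range of group means. The fit was tested on simulated data. The alternatives were other scalings, filters, probe set choices, variance models, blocks and arrays left out. Promoters of 8 members were in the RefSeq table; those shown are 5 of them.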

Additional observations from a re-analysis of the deposited data

How the results depend on the processing

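Of the 24 member differences called, 18 were called in every alternative, and of the 46 not called, 37 were never called. The number of members called after heat shock against control was 2 with replicates 1 and 2 (description codes S2a and S2b) of each group averaged, which drops KLF4 and KLF11, and 7 with a trended and robust variance prior, where 5.07% and 16.7% of all genes were called. They were averaged because the codes may mark a shared source, in which case each group holds 2 independent samples and the p-values of the text are too small. For heat shock against wounding it was 4 with only genes of mean level 6 or more, 4 with the trended and robust prior and 4 with array weights, where 25.7%, 13.2% and 18.6% of all genes were called, against 10.5% in the text. KLF3 after both treatments reversed to 0.0481 with all probe sets averaged and 0.175 with the probe set of largest variance. Leaving out 1 array gave 3 to 5 members after heat shock, 4 to 4 after wounding, 6 to 8 after both, 3 to 4 against wounding, 3 to 3 against heat shock, 2 to 3 for heat shock against wounding and 0 to 0 for the interaction. Under quantile, median and cyclic loess scaling both treatments against control gave 6 higher and 1 lower in place of 5 and 2, as KLF11 was gained and KLF3 lost. With averaged S2 arrays the counts over all genes fell to 919 for heat shock, 224 for wounding and 2475 for both treatments against control. Same-numbered arrays of different groups correlated at -0.123 to 0.406 in their deviations, 12 of 18 over 0.1, with a median of 0.17 against -0.0662 for different numbers, and 10 of 12 arrays correlated best with their own number, a hint of pairing from the data. Pairing was taken only where every pair was over 0.1 or the labels gave it, and neither held, so the text has no block. With replicate number as a block the members called were 4 after heat shock, 4 after wounding, 8 after both, 5 against wounding, 3 against heat shock, 3 for heat shock against wounding and 0 for the interaction; KLF11 was gained after both treatments, against wounding, and in heat shock against wounding. The cause of these changes was not tested.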

Other observations

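On the probe set used for the gene, KLF11 was highest in all 4 groups on the array with description code S3a, and no other member was. The labels do not give the meaning of this code. The dimmest KLF11 probe set had its highest value on the S3a array in every group except the wounded one. The remaining KLF11 probe set had its highest value there in control only. With replicate number as a block, the KLF11 difference after both treatments, 0.41, had a limma adjusted p of 0.0114, against 0.0664 without the block. The difference between heat shock and wounding, 0.48, had a limma adjusted p of 0.00986 with the block and 0.0565 without. Both come from the probe set used for the gene.

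The high KLF5 value of heat shock replicate 3 was seen in 1 of its 3 probe sets. That probe set read 9.83 on the array and 9.26 on both other heat shocked arrays, whereas the other probe sets had their lowest heat shocked values there, 8.17 against 8.43 and 8.39, and 8.37 against 8.64 and 8.51.

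The 2 KLF2 probe sets differed in size of response: 1.26 and 0.74 after both treatments, 0.32 and 0.05 after heat shock, and 0.67 and 0.31 after wounding. Whether they read different transcripts was not tested.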
